A study of Mus musculus with 8 samples.

Results

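The 50 genes described here build or run motile cilia, the beating hairs of airway multiciliated cells. They were taken as the rows of the count table whose Ensembl identifier maps to a fixed list of 50 symbols, and all 50 were found among the 43432 genes of the table. By role they were 5 regulators, 3 outer dynein arm genes, 9 inner dynein arm genes, 4 radial spoke genes, 8 central pair genes, 6 genes of the ruler, the nexin link and the tether, 7 tektins and microtubule inner proteins, and 8 genes of assembly, membrane or other function. They lie on 19 chromosomes.

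RNA was sequenced from 8 libraries of sorted lung cells of C57BL/6J mice aged 14 weeks. The C/C group (n = 2) carried both copies of ChiaRed, a reporter for the acidic mammalian chitinase gene Chia1, and its cells were sorted as ChiaRed+ EpCAM+CD45-. The C/+ group (n = 3) carried 1 copy and was sorted through the same ChiaRed+ EpCAM+CD45- gate. The WT group (n = 3) had no reporter and gave the whole EpCAM+CD45- gate, so both reporter groups differed from WT in sorting as well as in genotype. The labels do not say that libraries of a group came from separate animals, so the tests measure the spread between these libraries, which may be technical in part.

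A motile cilium is built on an axoneme, a ring of microtubule doublets around a central pair of single microtubules. Outer and inner dynein arms on each doublet are the motors, radial spokes and the central pair relay the signals that set the beat, and the nexin link with the molecular ruler holds the repeat in register. In the mouse lung these genes mark the multiciliated cells of the airways, and the forkhead factor Foxj1 with the RFX factors switches the programme on. Alveolar type 2 cells, the main cells of an EpCAM+ lung sort, bear no motile cilia, whereas primary cilia and their transport machinery are found on many cell types.

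Total counts were 41950581 and 46478577 in C/C, 17057216 to 30190458 in C/+ and 20232091 to 52319957 in WT. Levels are CPM, counts scaled to a common library size with TMM factors, and changes are log2 fold changes of the edgeR fit. Chia1 itself was at 1.446 and 0.3649 CPM in C/C, at 303.5, 340.9 and 223.2 CPM in C/+ and at 267.5, 454 and 425.5 CPM in WT. Sftpc and the other 10 alveolar type 2 markers dominated every library, with a summed level of 259300 to 263600 CPM in C/C, 225200 to 233400 CPM in C/+ and 191800 to 219800 CPM in WT. The markers of ciliated cells, Foxj1, Dnah9 and Hydin, were detected in all 8 libraries at low level, from 1.17 CPM (Dnah9 in C/C 2) to 20.8 CPM (Foxj1 in C/+ 1). In such bulk libraries, fewer ciliated cells and less cilium RNA per cell cannot be told apart. Counts of Xist and of the Y-linked gene Ddx3y put C/+ 1, WT 2 and WT 3 as male and the other 5 libraries, both of C/C among them, as female. Mitochondrial genes took 4.92% and 6.67% of the counts in C/C, 4.26%, 3.94% and 6.40% in C/+ and 3.31%, 2.92% and 2.90% in WT. All C/C and C/+ libraries lay above every WT library in this share, and C/C and C/+ overlapped. The part of this in the cilium results was not tested.

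One C/+ library stood apart. C/+ 1 held the highest level of all 8 libraries for 32 of the 50 genes, and it lay above both other C/+ libraries for 43, where 34.2% of all tested genes had that pattern. The median ratio of C/+ 1 to the mean of C/+ 2 and C/+ 3 was 2.21 over the cilium genes and 1.003 over all tested genes. C/+ 2 and C/+ 3 both lay below every WT library for 34 genes. For that count and for the 32 genes highest in C/+ 1, the share over all tested genes was not computed. Neither count is therefore read as a trait of the cilium genes.

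The cilium genes were lower in C/C cells than in C/+ and WT cells, with the lowest class medians in the dynein arms. Of the 50 genes, all of which passed the low-count filter, 16 fell in C/C against WT and 0 rose at an adjusted p under 0.05 in edgeR's quasi-likelihood test, where 1.36% of all 14906 tested genes fell and 1.62% rose. The 16 were Foxj1, Dnah9, Dnah11, Dnah1, Dnah3, Dnah6, Dnah12, Hydin, Spag17, Cfap46, Cfap65, Ccdc39, Cfap44, Tekt2, Cdhr3 and Cdhr4, and their mean CPM in C/C were 10.8% to 34.3% of those in WT. The median log2 fold change was -1.68 over the 50 genes and -0.03 over all tested genes. For 42 of the 50 genes both C/C libraries lay below every WT library and for 1 above, where 22.6% and 20.8% of all tested genes did so. At an unadjusted p under 0.05, 37 genes were lower and 1 was higher, against 12% and 10.1% of all tested genes, and 46 had a log2 fold change below 0, against 53.3%. The count of 16 moved with the libraries: it was 0 without C/C 1, 1 without C/C 2, 0 without WT 2, 5 without WT 3, 10 without WT 1, 7 without C/+ 2 and 26 without C/+ 1, whereas the median stayed between -1.87 and -1.47. Where a C/C library is left out, the lone one is assumed to vary like the other groups.

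Against C/+, which went through the same sort, 11 of the 50 genes fell in C/C and 0 rose, where 5.33% of all tested genes fell and 1.75% rose. These were Dnah9, Dnah11, Dnah1, Dnah3, Dnah6, Dnah12, Spag17, Cfap65, Ccdc39, Cfap44 and Cdhr4. The comparison uses the same C/C libraries as the one against WT, so the 2 sets of fold changes are not independent. The median log2 fold change was -1.34 over the 50 genes and -0.01 over all tested genes. Both C/C libraries lay below all 3 C/+ libraries for 32 of the 50 genes and above them for 1, where 20.2% and 18.1% of all tested genes did so. At an unadjusted p under 0.05, 32 were lower and 1 was higher, against 13.1% and 7.85% of all tested genes, and 47 had a log2 fold change below 0, against 51.3%. The count was 0 without C/C 1, 1 without C/C 2 and 21 without C/+ 3, and the median moved to -0.72 without C/+ 1.

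Between C/+ and WT no cilium gene passed the test in either direction, where 3.42% of all tested genes rose in C/+ and 0.503% fell. At an unadjusted p under 0.05, 3 of the 50 genes were lower in C/+ and 0 were higher, where 7.8% and 12.3% of all tested genes were, and DESeq2 also called 0. The median log2 fold change was -0.27 over the 50 genes and 0.00 over all tested genes, and 41 of the 50 were below 0, against 49.4% of all tested genes. For 4 genes, Rfx3, Dnah7a, Hydin and Cfap46, all C/+ libraries lay below all WT libraries and for 0 above, against 10.7% and 14.1% of all tested genes.

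Without C/+ 1, Foxj1 and Dnah5 fell in C/+ against WT and the median was -0.79. C/+ 1 was also the only male library of its group, and a fit of female libraries alone was added after the data were seen. In that fit 6 genes fell in C/C against C/+ with a median of -0.70, and 19 fell and 1, Ccno, rose in C/C against WT with a median of -1.53. Its comparison of C/+ with WT, from 2 and 1 libraries, called 0 genes with a median of -0.66.

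**Figure D1:**
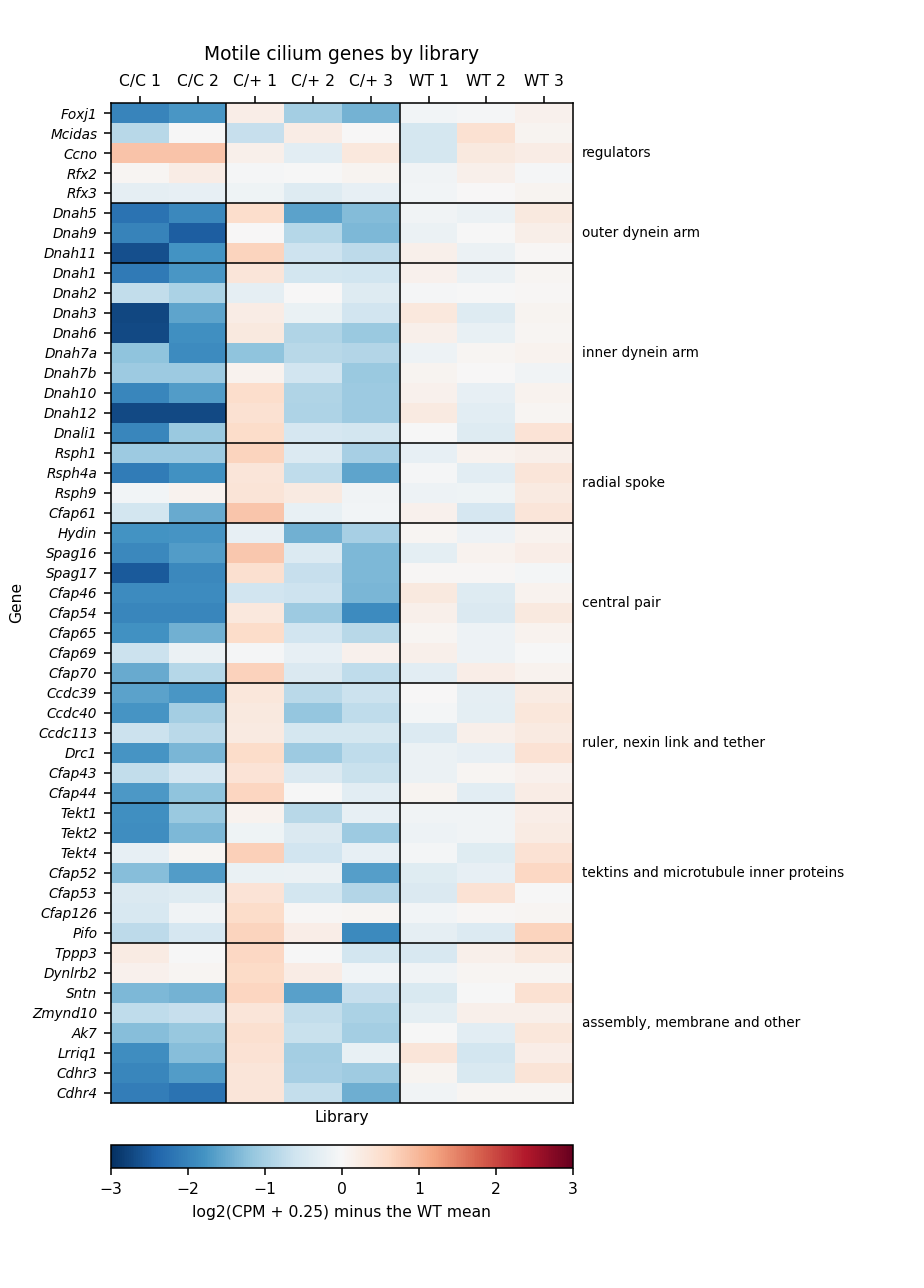
Level of each of the 50 cilium genes (rows, grouped by role) in each library (columns, C/C, C/+ and WT from left to right), as log2(CPM + 0.25) minus the WT mean of the gene; blue is lower and red higher. Both C/C columns are blue for most genes outside the regulators, C/+ 1 is pale red for most and C/+ 2 and C/+ 3 are mostly pale blue.

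The regulators did not move as a block. Foxj1, the forkhead factor that drives motile ciliogenesis (chromosome 11, 116330704 to 116335399 on GRCm38), stood at 4.36 and 5.13 CPM in C/C, at 20.8, 8.72 and 6.53 CPM in C/+ and at 16.8, 17.6 and 19.6 CPM in WT. Both C/C libraries were below all others, and C/+ 2 and C/+ 3 lay between the C/C and WT libraries. Foxj1 fell in C/C against WT, with a log2 fold change of -1.92 (SE 0.41, adjusted p = 0.0392). Against C/+ its difference was -1.36 (SE 0.40), with an adjusted p of 0.0752 that missed the threshold.

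The RFX factors, which bind the X-box of cilium gene promoters, had small differences that did not pass the test. Rfx2 averaged 25.001 ± 2.09 CPM in C/C, 22.7 ± 1.12 CPM in C/+ and 22.6 ± 2.17 CPM in WT (SD; n = 2, 3 and 3), with a log2 fold change in C/C against WT of 0.15 (SE 0.13, adjusted p = 0.531). Rfx3 averaged 9.69 ± 0.0781 CPM in C/C, 9.71 ± 0.856 CPM in C/+ and 11.7 ± 0.724 CPM in WT. Its difference between C/C and WT was -0.27 (SE 0.15, adjusted p = 0.323). Both factors are also made outside ciliated cells.

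Ccno, whose cyclin O is needed to multiply centrioles before cilia form, had the opposite order. It was at 9.96 and 9.93 CPM in C/C, at 6.07, 4.29 and 6.76 CPM in C/+ and at 3.70, 6.69 and 6.34 CPM in WT. Both C/C libraries were above all others, the only cilium gene of the 50 with that order. The difference was 0.80 against C/+ (SE 0.27, adjusted p = 0.120) and 0.84 against WT (SE 0.27, adjusted p = 0.107), neither past the threshold. Mcidas, the coactivator that starts multiciliation and the neighbour of Ccno at a gap of 3.1 kb on chromosome 13, was under 1 CPM in every library, with means of 0.352 ± 0.239 CPM in C/C, 0.47 ± 0.218 CPM in C/+ and 0.556 ± 0.262 CPM in WT.

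**Figure D2:**
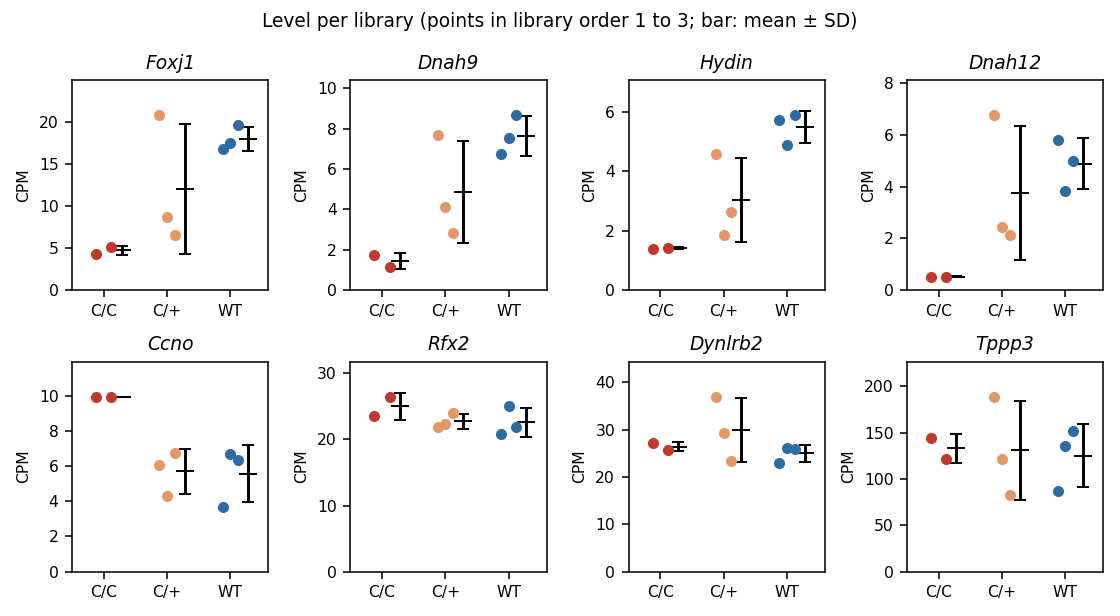
CPM per library for 8 cilium genes (points in library order within C/C, C/+ and WT; the cross bar and whiskers give mean ± SD, n = 2, 3 and 3). Foxj1, Dnah9, Hydin and Dnah12 have both C/C points at the bottom, Ccno has them at the top, and Rfx2, Dynlrb2 and Tppp3 overlap between groups.

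Outer arm heavy chains, the motors that set beat frequency, were all low in C/C. Dnah9 (chromosome 11, 65831282 to 66168551), the heavy chain of the distal outer arm, was at 1.72 and 1.17 CPM in C/C, at 7.67, 4.11 and 2.82 CPM in C/+ and at 6.72, 7.54 and 8.67 CPM in WT. The C/C libraries overlapped neither other group. Dnah9 fell by 1.76 on the log2 scale in C/C against C/+ (SE 0.40, adjusted p = 0.0242) and it fell by 2.3955 against WT (SE 0.40, adjusted p = 0.0194). Dnah11, its counterpart in the proximal cilium, was at 0.643 and 1.36 CPM in C/C, at 8.62, 3.36 and 2.999 CPM in C/+ and at 5.89, 4.65 and 5.47 CPM in WT. It fell by 2.34 against C/+ (SE 0.50, adjusted p = 0.0188) and by 2.43 against WT (SE 0.50, adjusted p = 0.0381). Cdca7l lies over a small part of Dnah11 on the opposite strand. Dnah5, the other outer arm heavy chain, had the same order of means, 1.48 ± 0.236 CPM in C/C, 5.01 ± 4.49 CPM in C/+ and 7.07 ± 1.34 CPM in WT. Its differences of -1.79 and -2.27 against C/+ and WT had adjusted p of 0.107 and 0.0675.

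Among the 9 inner arm genes, 4 fell in C/C in each comparison, all of them heavy chains of single-headed arms. Dnah12 had the deepest change of the 50 genes against both C/+ and WT, at 0.528 and 0.521 CPM in C/C, at 6.76, 2.43 and 2.12 CPM in C/+ and at 5.82, 3.84 and 4.98 CPM in WT. It fell by 2.86 against C/+ (SE 0.53, adjusted p = 0.00903) and by 3.21 against WT (SE 0.53, adjusted p = 0.0193), a C/C level of 10.8% of WT. Dnah3 was at 1.47 and 3.52 CPM in C/C, at 13.1, 9.66 and 7.35 CPM in C/+ and at 13.9, 8.40 and 11.8 CPM in WT. C/C 2 was well above C/C 1, yet both lay below the other 6 libraries, and the gene fell by 2.02 against C/+ (adjusted p = 0.0106) and by 2.20 against WT (adjusted p = 0.0232). When C/C 2 was left out, the Dnah3 difference rested on C/C 1 alone, the lower of the pair. Lyrm1, a protein-coding gene, overlaps Dnah3 by 34293 bases on the opposite strand.

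Dnah1 was at 0.574 and 0.808 CPM in C/C, at 4.31, 2.19 and 2.12 CPM in C/+ and at 3.67, 2.89 and 3.44 CPM in WT. Dnah6 was at 2.02 and 3.83 CPM in C/C, at 17.6, 7.60 and 6.53 CPM in C/+ and at 16.2, 12.4 and 15.02 CPM in WT. In both genes the C/C libraries were below every other library, and C/+ 1 was above every WT library. Dnah1 fell by 2.07 against C/+ (adjusted p = 0.0118) and by 2.27 against WT (adjusted p = 0.0242), and Dnah6 fell by 1.88 (adjusted p = 0.0254) and by 2.32 (adjusted p = 0.0294). Dnali1, a light chain of the inner arm with the highest level per kb of its class, was at 1.22 and 2.37 CPM in C/C, at 8.06, 3.78 and 3.65 CPM in C/+ and at 5.40, 4.08 and 7.25 CPM in WT. Its differences of -1.54 against C/+ and -1.65 against WT missed the threshold at adjusted p of 0.0662 and 0.0696, although the C/C libraries were the lowest of the 8.

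The other 4 inner arm genes, Dnah2, Dnah7a, Dnah7b and Dnah10, had log2 fold changes of -0.88, -2.57, -1.39 and -1.92 in C/C against WT, and no adjusted p under 0.05. Dnah7a and Dnah7b are near-identical copies, and how reads were split between the pair is uncertain. Dnah2 differed least of the heavy chains, with 3.63 ± 0.381 CPM in C/C, 5.77 ± 0.888 CPM in C/+ and 6.68 ± 0.193 CPM in WT. Over the 11 heavy chains of both arms the median log2 fold change in C/C was -1.79 against C/+ and -2.27 against WT. All 11 had both C/C libraries below every WT library, and 9 had them below every C/+ library, against 22.6% and 20.2% of all tested genes. Summed over the 11 genes, the heavy chain level was 20.9% and 27.0% of the WT mean in the C/C libraries, 123%, 61.2% and 50.8% in C/+, and 107%, 86.5% and 106% in WT.

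Radial spoke genes held no called member. Rsph9, a spoke head protein and the highest of its class per kb, was at 10.5 and 11.96 CPM in C/C, at 14.6, 13.4 and 10.3 CPM in C/+ and at 10.1, 10.2 and 13.5 CPM in WT. The groups overlapped, with a log2 fold change of -0.01 in C/C against WT (SE 0.19, adjusted p = 0.986). Rsph9 overlaps Mrps18a, a mitochondrial ribosomal protein gene on the opposite strand, and the strand setting of the counting is not given in the sources used here. The other spoke genes, Rsph1 and Rsph4a of the spoke head and Cfap61 of the spoke base, had log2 fold changes of -1.185, -2.21 and -1.24 against WT, each with both C/C libraries below all WT libraries and adjusted p of 0.142, 0.0545 and 0.212.

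The central pair followed the dynein arms. Hydin (chromosome 8, 110266977 to 110610253), a large projection protein whose loss causes hydrocephalus in mice, was at 1.3998 and 1.43 CPM in C/C, at 4.602, 1.87 and 2.65 CPM in C/+ and at 5.74, 4.89 and 5.89 CPM in WT. The 3 groups did not overlap in any pair, with C/C lowest and WT highest. Hydin fell by 1.96 in C/C against WT (SE 0.37, adjusted p = 0.0300), whereas its difference of -1.11 against C/+ had an adjusted p of 0.104. Its difference in C/+ against WT was -0.84 (SE 0.31, adjusted p = 0.159). Cfap46, another projection component, was at 0.344 and 0.339 CPM in C/C, at 1.21, 1.17 and 0.588 CPM in C/+ and at 2.404, 1.42 and 2.08 CPM in WT, again with no overlap between groups. It fell by 2.52 against WT (adjusted p = 0.0325), and its difference of -1.54 against C/+ was not called (adjusted p = 0.0914).

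Spag17, a scaffold of the central pair projections, was at 0.482 and 0.860 CPM in C/C, at 5.61, 2.38 and 1.41 CPM in C/+ and at 4.08, 4.03 and 3.77 CPM in WT. It fell by 2.25 against C/+ (adjusted p = 0.0329) and by 2.56 against WT (adjusted p = 0.0394). Wdr3 lies over part of it on the opposite strand. Cfap65 was at 4.80 and 6.20 CPM in C/C, at 25.7, 11.6 and 9.65 CPM in C/+ and at 18.0, 15.7 and 18.7 CPM in WT. It fell by 1.52 against C/+ (adjusted p = 0.0312) and by 1.67 against WT (adjusted p = 0.0425). Cfap69, level with Cfap65 per kb in WT, showed a far smaller difference. It was at 10.9 and 15.2 CPM in C/C, at 16.8, 14.5 and 18.8 CPM in C/+ and at 19.3, 15.6 and 17.1 CPM in WT, and its difference of -0.41 against WT was not called (SE 0.18, adjusted p = 0.215). The remaining central pair genes, Spag16, Cfap54 and Cfap70, had differences of -2.09, -2.41 and -1.34 against WT, none of them called. The class median was -1.53 against C/+ and -2.02 against WT.

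Of the 6 genes of the ruler, nexin link and tether, Ccdc39 and Cfap44 fell in both C/C comparisons. Ccdc39, which with Ccdc40 forms the ruler that spaces arms and spokes, was at 2.07 and 1.85 CPM in C/C, at 8.65, 3.78 and 4.29 CPM in C/+ and at 6.93, 5.65 and 8.11 CPM in WT. It fell by 1.52 against C/+ (adjusted p = 0.0307) and by 1.82 against WT (adjusted p = 0.0354), with Ttc14 overlapping it on the opposite strand. Cfap44, of the tether that ties an inner arm to its doublet, was at 1.95 and 2.92 CPM in C/C, at 11.1, 6.998 and 5.59 CPM in C/+ and at 7.47, 5.60 and 8.22 CPM in WT. It fell by 1.71 against C/+ (adjusted p = 0.0114) and by 1.55 against WT (adjusted p = 0.0392). Cfap43, its partner in the tether, had smaller differences of -0.50 and -0.65, neither called, at 9.22 and 10.9 CPM in C/C, 21.0, 11.6 and 9.82 CPM in C/+ and 13.8, 16.3 and 17.1 CPM in WT. Cfap43 shares its locus with Gsto1 on the opposite strand. Ccdc40, Drc1 of the nexin link and Ccdc113 had differences of -1.46, -1.76 and -0.84 against WT that were not called.

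Tektins and other microtubule inner proteins, which line the doublets, held 1 called gene. Tekt2 was at 0.826 and 1.28 CPM in C/C, at 3.33, 2.66 and 1.59 CPM in C/+ and at 3.26, 3.42 and 4.43 CPM in WT. It fell by 1.82 against WT (SE 0.38, adjusted p = 0.0392), and the C/C libraries were below all others. Cfap126, the highest of the class per kb, was at 6.86 and 8.97 CPM in C/C, at 14.2, 9.94 and 9.998 CPM in C/+ and at 9.05, 9.87 and 9.95 CPM in WT. Its C/C libraries were the lowest by a narrow margin, with a difference of -0.28 against WT (adjusted p = 0.452). The other 5 ranged from -1.76 (Cfap52) to -0.16 (Tekt4) against WT. The class median was -0.78 against C/+ and -0.86 against WT. Pifo lies 98.6 kb from Chia1 on chromosome 3. It averaged 1.07 ± 0.183 CPM in C/C, 1.80 ± 1.38 CPM in C/+ and 1.91 ± 0.955 CPM in WT, with no call.

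The last group held the 2 most abundant of the 50 genes per kb, and neither passed the test. Tppp3, which promotes tubulin polymerisation, was at 144 and 122 CPM in C/C, at 189, 121 and 82.5 CPM in C/+ and at 87.3, 136 and 152 CPM in WT, with overlap between all groups and a difference of 0.09 against WT (SE 0.30, adjusted p = 0.906). The sign of that difference turned under the replicate block, and with sex as a covariate Tppp3 was higher in C/C than in WT by 0.66 (adjusted p = 0.0443). Dynlrb2, a light chain of the dynein family, averaged 26.4 ± 0.935 CPM in C/C, 29.9 ± 6.81 CPM in C/+ and 24.98 ± 1.73 CPM in WT, and its difference against WT was 0.08 (SE 0.17, adjusted p = 0.825). The cadherins of the group fell. Cdhr3, in humans the receptor of rhinovirus C on ciliated cells, was at 1.81 and 2.27 CPM in C/C, at 10.02, 3.78 and 3.59 CPM in C/+ and at 8.25, 5.60 and 10.2 CPM in WT. It fell by 1.98 against WT (SE 0.46, adjusted p = 0.0488).

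Cdhr4 was at 0.688 and 0.599 CPM in C/C, at 4.83, 2.15 and 1.18 CPM in C/+ and at 3.41, 3.84 and 3.87 CPM in WT. It fell by 2.10 against C/+ (adjusted p = 0.0378) and by 2.52 against WT (adjusted p = 0.0392), and it shares part of its locus with Gm20661 on the same strand. Lrriq1 had a difference of -3.11 against WT that was not called (SE 0.92, adjusted p = 0.0879). It was at 0.0229 and 0.156 CPM in C/C, at 1.08, 0.233 and 0.588 CPM in C/+ and at 1.01, 0.427 and 0.874 CPM in WT, and its C/C 1 value rests on 1 count. Sntn of the ciliary tip, the preassembly factor Zmynd10 and the adenylate kinase Ak7 had differences of -1.83, -0.78 and -1.31 against WT with no call.

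**Figure D3:**
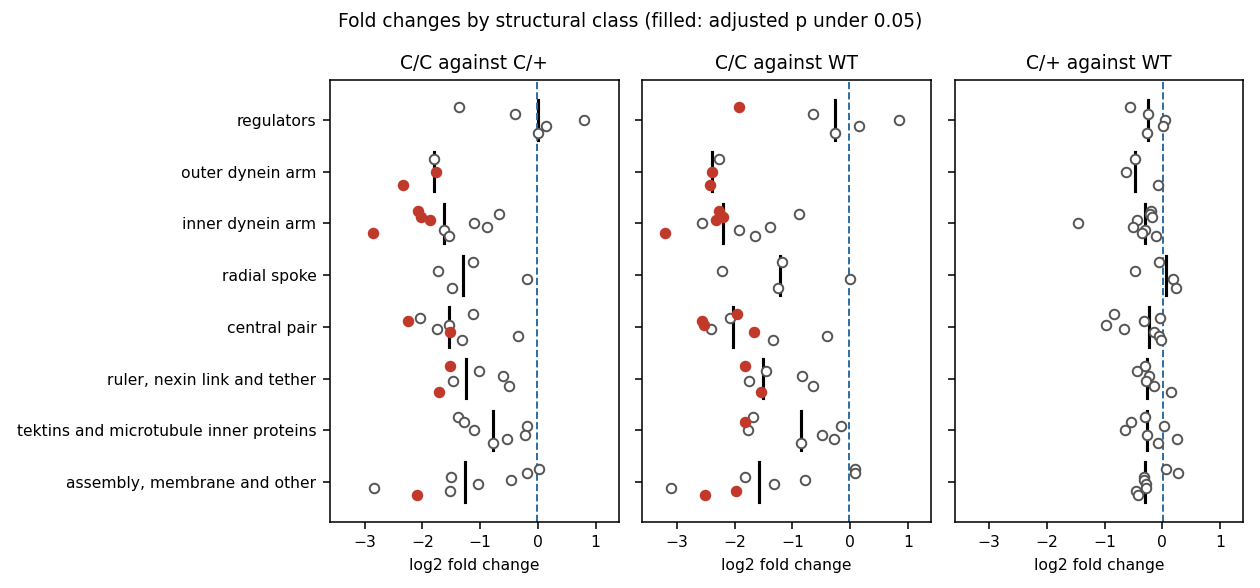
Log2 fold change (horizontal axis) of each cilium gene by role (rows), for C/C set against C/+, for C/C set against WT and for C/+ set against WT; filled points have an adjusted p under 0.05 and the black tick is the class median. The class medians of the dynein arms and the central pair lie farthest left in both C/C panels, the regulators straddle 0, and the third panel has no filled point.

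Read against WT, the class medians in C/C ran from -2.3955 for the outer arm, -2.20 for the inner arm and -2.02 for the central pair, through -1.57 for assembly, membrane and other genes and -1.50 for ruler, nexin link and tether, to -1.21 for the spokes, -0.86 for tektins and inner proteins and -0.27 for regulators. In that order of classes the calls were 2 of 3, 4 of 9, 4 of 8, 2 of 8, 2 of 6, 0 of 4, 1 of 7 and 1 of 5 genes. Of all tested genes 1.36% were called lower in C/C against WT. The total of 16 calls ranged from 0 to 26 with a library left out, so the counts by class are not firm. The classes were not tested against each other.

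Size of change went with level per kb, and also with exon length. Per kb of exon the 50 genes spanned 0.0679 CPM (Dnah7a) to 67.7 CPM (Tppp3) in WT. The 14 genes with a WT level of at least 2 CPM per kb had a median log2 fold change of -0.53 in C/C against WT and 2 calls, Foxj1 and Cfap65. The 36 genes under that level had a median of -1.88 and 14 calls. Across the 50 genes the Spearman correlation of WT level per kb with that fold change was 0.61, a description only, since both measures use the same WT libraries and genes are not independent replicates. Exon length, by which the level is divided, had a correlation of -0.511 with the same fold change. The parts of level and length were not separated.

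**Figure D4:**
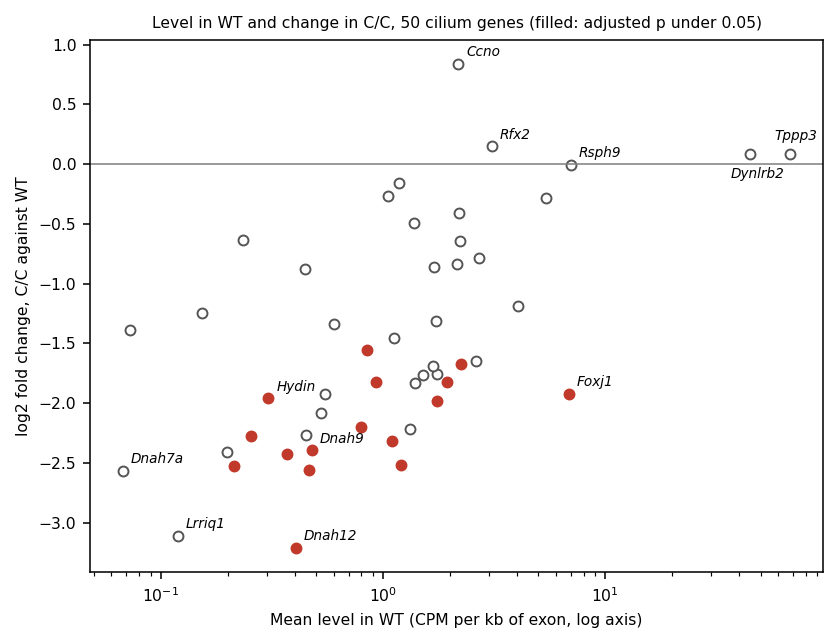
Mean WT level of each of the 50 cilium genes in CPM per kb of exon (horizontal log axis) against its log2 fold change in C/C against WT (vertical axis); filled points have an adjusted p under 0.05. Tppp3 and Dynlrb2, at the far right, lie near 0, while most genes under 2 CPM per kb lie below -1.

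The RFX factors bind the X-box, so the promoters of the cilium genes were searched for it. RefSeq promoters (GRCm38.p6, the 250 bases before the start) were matched for 42 of the 50 genes, and not for Rsph1, Dnah3, Foxj1, Tppp3, Rsph4a, Cfap53, Cfap54 and Cfap65. On either strand GTTGCCA, one arm of the X-box, was present in 11 of the 42 (26.2%) and in 4.19% of the 27025 genes of the table. The 11 were Ccno, Cdhr3, Cfap44, Dnah7b, Drc1, Hydin, Lrriq1, Mcidas, Pifo, Sntn and Tekt1. The full X-box, taken as the half-sites GTNNCC and GGNAAC with any 2 bases between them, was in 4 (9.52%, against 1.24% of genes), and with AT between them in 1 (2.38%, against 0.385%). With GTTNCC as the first half-site and AT between it was in 0 (against 0.133% of genes), and GTTNCC with AT and GG after it was in 2 (4.76%, against 1.11%). Read from the other strand, the first of these is GTTNCC, any 2 bases and GGNNAC. These patterns overlap one another, so a site can match several. The forkhead letters GTAAACA were in 3 (7.14%, against 3.54%). A match is a run of letters in this window and not a shown binding site. The 5 promoters printed are those of 3 genes called lower in C/C and, beside them, Ccno, which was highest in C/C, and Lrriq1, which holds the X-box with AT between its half-sites. They are shown 5′ to 3′ on the strand of the gene, with capitals for the X-box match, which reads TGGCAAC where it lies on the other strand. Hydin is at chr8:110266727-110266976 (plus strand), Cfap44 at chr16:44394549-44394798 (plus), Cdhr3 at chr12:33092876-33093125 (minus), Ccno at chr13:112987552-112987801 (plus) and Lrriq1 at chr10:103236323-103236572 (minus).
Hydin: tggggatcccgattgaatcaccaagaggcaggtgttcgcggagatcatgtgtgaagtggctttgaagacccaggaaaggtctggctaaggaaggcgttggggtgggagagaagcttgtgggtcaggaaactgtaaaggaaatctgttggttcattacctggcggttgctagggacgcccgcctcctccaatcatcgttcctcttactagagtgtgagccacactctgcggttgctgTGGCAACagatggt
Cfap44: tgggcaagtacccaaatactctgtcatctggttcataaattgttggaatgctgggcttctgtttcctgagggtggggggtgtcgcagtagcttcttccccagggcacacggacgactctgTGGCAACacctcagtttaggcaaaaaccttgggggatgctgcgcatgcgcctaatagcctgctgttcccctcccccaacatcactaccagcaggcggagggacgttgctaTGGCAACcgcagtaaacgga
Cdhr3: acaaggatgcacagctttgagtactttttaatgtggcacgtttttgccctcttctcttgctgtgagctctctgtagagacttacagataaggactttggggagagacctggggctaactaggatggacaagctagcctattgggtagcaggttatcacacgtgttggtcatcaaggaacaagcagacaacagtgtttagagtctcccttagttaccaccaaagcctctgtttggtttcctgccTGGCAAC
Ccno: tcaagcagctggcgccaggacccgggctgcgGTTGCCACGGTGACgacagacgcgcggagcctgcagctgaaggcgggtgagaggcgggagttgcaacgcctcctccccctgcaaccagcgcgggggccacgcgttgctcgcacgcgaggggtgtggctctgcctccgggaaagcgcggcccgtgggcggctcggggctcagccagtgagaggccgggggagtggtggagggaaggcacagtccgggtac
Lrriq1: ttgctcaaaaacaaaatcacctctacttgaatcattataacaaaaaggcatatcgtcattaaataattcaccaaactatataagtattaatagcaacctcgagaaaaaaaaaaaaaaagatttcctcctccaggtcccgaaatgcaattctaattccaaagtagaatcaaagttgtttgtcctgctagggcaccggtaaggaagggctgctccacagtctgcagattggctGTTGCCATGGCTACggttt
Hydin, Cfap44 and Cdhr3, which fell in C/C, and Ccno, highest there though not called, carry the same arm letters within 250 bases of their start. The other called genes searched, Dnah9, Dnah11, Dnah1, Dnah6, Dnah12, Spag17, Cfap46, Ccdc39, Tekt2 and Cdhr4, lacked these letters there. Most genes with the letters were not called, and a link between the letters and the fall was not tested.

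Cilium genes outside the 50 were read from 7 further lists holding 117 genes, 110 of them tested. Over these, 10 fell in C/C against C/+ and 10 fell against WT, with none higher in either, where 5.33% and 1.36% of all tested genes fell, and the medians were -0.36 and -0.39. Structural lists moved most. Of 20 other spoke, nexin link and central pair genes, 5 fell against each group, with medians of -1.07 against C/+ and -1.40 against WT. Among them Spag6l of the central pair was at 0.803 ± 0.228 CPM in C/C, 3.05 ± 1.33 CPM in C/+ and 4.15 ± 0.944 CPM in WT, and fell by 1.94 against C/+ (adjusted p = 0.0183) and by 2.38 against WT (adjusted p = 0.0229). Cfap206 of the spoke base fell by 1.21 (adjusted p = 0.0243) and by 1.71 (adjusted p = 0.0170), and Tcte1 of the nexin link by 1.83 (adjusted p = 0.0456) and by 2.45 (adjusted p = 0.0336). The kinase Stk36 fell by 0.67 against WT (adjusted p = 0.0370), and its difference of -0.35 against C/+ was not called (adjusted p = 0.174).

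The 12 tested further dynein arm and docking genes had 1 call against C/+ and 0 against WT, where 5.33% and 1.36% of all tested genes fell. At an unadjusted p under 0.05, 8 were lower in C/C against WT and 0 were higher, against 12% and 10.1% of all tested genes. The called gene, Dnah8, a heavy chain best known from sperm, was at 0.229 and 0.417 CPM in C/C, at 2.90, 2.57 and 2.47 CPM in C/+ and at 1.14, 0.427 and 0.576 CPM in WT. It rose by 1.87 in C/+ against WT (SE 0.43, adjusted p = 0.0412) and fell by 3.03 in C/C against C/+ (SE 0.54, adjusted p = 0.00737). Of 16 tested inner and doublet genes, Spata18, known as a mitochondrial quality factor, was the one called and fell by 1.96 and 2.55 (adjusted p = 0.0123 and 0.0146) against C/+ and WT, and the list medians were -1.11 and -1.32. Among 12 tested multiciliation genes the deuterosome genes Deup1 (-2.73, adjusted p = 0.0306) and Ccdc78 (-1.71, adjusted p = 0.0194) fell against C/+, and Ccdc78 also fell by 1.67 against WT (adjusted p = 0.0428). The list medians were -0.30 and -0.06, with 5 and 4 of the 12 genes above 0.

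Lists shared with the primary cilium had smaller medians than the structural lists, and so did the dynein preassembly list, which serves the arms of motile cilia. The 20 intraflagellar transport genes had medians of -0.10 against C/+ and -0.07 against WT, and their summed level spanned 520.3 to 522.6 CPM in C/C, 552.5 to 572.6 CPM in C/+ and 507.4 to 574.0 CPM in WT. Against C/+ 1 of the 20 was called and against WT 2, shares to be read beside the 5.33% and 1.36% of all tested genes. The motor subunit Kifap3 fell by 0.50 against C/+ (adjusted p = 0.0351), and the motor subunits Kif3b and Dync2h1 fell by 0.54 and by 0.97 against WT (adjusted p = 0.0446 and 0.0188). In C/+ against WT the particle subunit Ift20 rose by 0.36 (adjusted p = 0.0457). Of 19 primary cilium and Bardet-Biedl genes, Cc2d2a of the transition zone fell by 0.57 against WT (adjusted p = 0.0490), and the medians were -0.21 and -0.22. Both C/C libraries lay below every C/+ library for 9 of the 19 and above for 2, against 20.2% and 18.1% of all tested genes. They lay below every WT library for 10 and above for 0, against 22.6% and 20.8%. The summed level of the 19 was 195.6 to 202.1 CPM in C/C, 219.4 to 240.4 CPM in C/+ and 220.2 to 248.9 CPM in WT. The 11 dynein preassembly genes, cytoplasmic factors that fold the arms, had 0 calls in either C/C comparison by edgeR and medians of -0.21 and -0.27. At an unadjusted p under 0.05, 3 were lower against C/+, where 13.1% of all tested genes were. Against WT 2 were lower and 1 was higher, where 12% and 10.1% of all tested genes were. The most abundant of the 11, Cfap298, averaged 25.4 ± 3.48 CPM in C/C, 22.05 ± 3.31 CPM in C/+ and 19.9 ± 1.67 CPM in WT, with a difference of 0.35 against WT (adjusted p = 0.215).

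Markers of other cells moved with the groups as well. Club cells are the secretory neighbours of ciliated cells in the airway, and 9 of their 12 markers rose in C/+ against WT, while 10 fell in C/C against C/+. Of all tested genes 3.42% and 5.33% did so. Their summed level was 6485 to 6953 CPM in C/C, 10550 to 15450 CPM in C/+ and 5324 to 6736 CPM in WT. In C/C against WT 1 marker, Hp, rose and 0 fell, where 1.62% and 1.36% of all tested genes did so. Scgb1a1, the club cell secretoglobin, was at 343 and 549 CPM in C/C, at 8388, 5028 and 4482 CPM in C/+ and at 291, 823 and 290 CPM in WT. Cbr2, at 4929 and 5138 CPM in C/C, 4758, 4906 and 4452 CPM in C/+ and 4183, 4827 and 4585 CPM in WT, and Hp, at 1089 and 1122 CPM in C/C, made up most of the C/C sums, which therefore say little of the other 10 markers. The sums of C/C and WT overlapped, while the median over the 12 markers was -0.98 in C/C against WT. At an unadjusted p under 0.05, 6 of the 12 were lower, against 12% of all tested genes.

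Endothelial markers summed to 52.6 to 58.9 CPM in C/C, 500.8 to 864.4 CPM in C/+ and 67.5 to 257.1 CPM in WT. All 10 fell in C/C against C/+ and rose in C/+ against WT. Of all tested genes 5.33% and 3.42% did so, shares that also stand beside the mesothelial and mesenchymal counts below. In C/C against WT 1, Calcrl, fell, where 1.36% of all tested genes did. All 10 had a log2 fold change below 0, against 53.3% of all tested genes, with a median of -1.85. At an unadjusted p under 0.05, 8 were lower, and 7 had both C/C libraries below every WT library, against 12% and 22.6% of all tested genes. Mesothelial markers summed to 85.4 to 85.9 CPM in C/C, 120.0 to 280.9 CPM in C/+ and 50.5 to 84.0 CPM in WT, with 6 of 7 lower in C/C against C/+ and 5 of 7 higher in C/+ against WT. Most of the C/C sum was Krt19, at 77.8 and 78.8 CPM in C/C. In C/C against WT none was called. The median was -1.28, and 6 of 7 were below 0, against 53.3% of all tested genes. For 5 both C/C libraries lay below every WT library, against 22.6% of all tested genes. Of 7 tested mesenchymal markers of 8, 6 fell in C/C against C/+ and 5 rose in C/+ against WT, and the sums were 14.1 to 17.4 CPM in C/C, 79.7 to 216.8 CPM in C/+ and 16.1 to 39.6 CPM in WT. In C/C against WT none was called, and the median was -0.60. In C/+ the highest club, mesothelial and mesenchymal sums were in C/+ 1, the library highest in cilium genes. For club markers these were 15450 CPM in C/+ 1, 11700 CPM in C/+ 2 and 10550 CPM in C/+ 3. No club, endothelial or mesothelial marker was at 0 in any library, and of the mesenchymal markers Lum was at 0 in some. No alveolar type 2 marker of 11 was called in any of the 3 comparisons. For 6 of the 11 both C/C libraries lay above every WT library and for 3 below, against 20.8% and 22.6% of all tested genes. At an unadjusted p under 0.05, 3 were higher in C/C against WT and 2 were lower, against 10.1% and 12%. The summed level of the 11, 259300 to 263600 CPM in C/C, lay above every C/+ and WT library. The part of these cells in the cilium results was not tested.

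**Figure D5:**
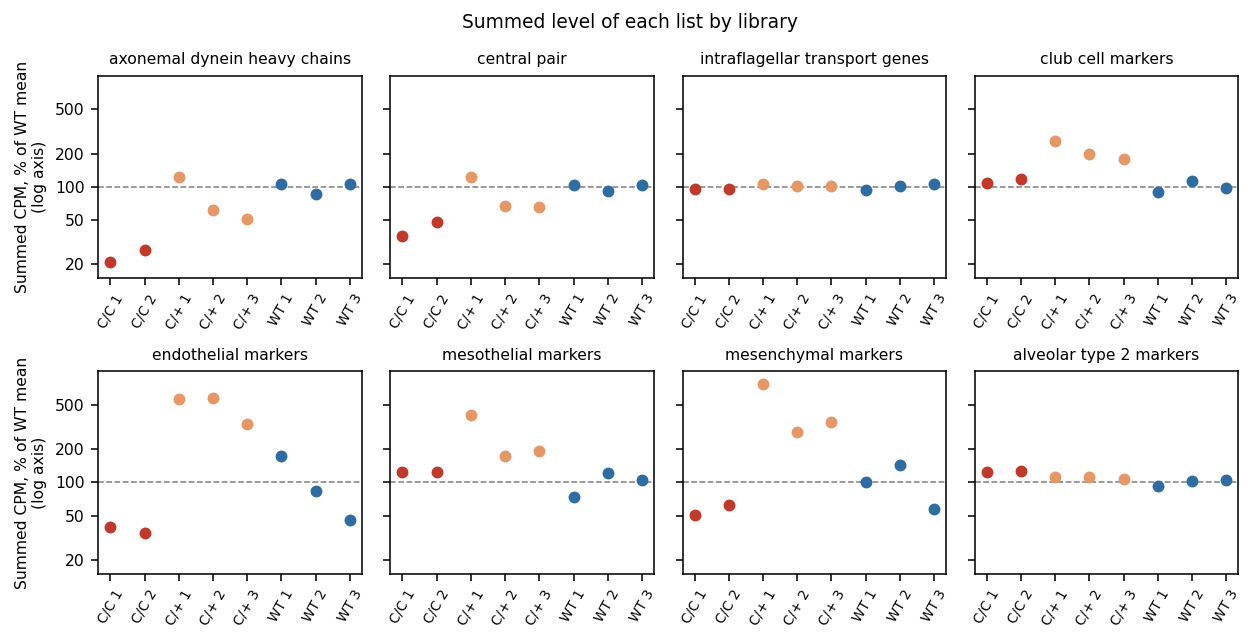
Summed CPM of each list as a percentage of its WT mean (vertical log axis, dashed line at the WT mean of 100%) in each library, C/C, C/+ and WT from left to right. Heavy chains and central pair genes are lowest in both C/C libraries and highest in C/+ 1, intraflagellar transport stays near the dashed line, and club, endothelial, mesothelial and mesenchymal markers are high in all 3 C/+ libraries.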

How the data were processed

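RNA was prepared with a spin-column kit and DNase and made into stranded mRNA libraries, per the labels. The authors deposited whole-number read counts per gene, not normalised, for 43432 mouse genes. STAR 2.4.2a and DESeq2 are named without roles per the submitters' processing notes, as is GRCh38, a human build although the identifiers are mouse. No tool for counting, strand setting or annotation is given in the sources used here. Symbols (42462 identifiers matched, 970 not), positions and exon lengths came from GENCODE M21 (GRCm38).

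After filterByExpr, 14906 genes were fitted in all 8 libraries with edgeR 4.0.16 (R 4.3.3): TMM, 1 mean per group and two-sided quasi-likelihood F tests. Benjamini-Hochberg adjustment ran over all tested genes, and an adjusted p under 0.05 is a call. The script was tested on simulated data. Libraries of a group differed by more than sampling noise (chi-square per gene 12.2 to 73.5), and every column was mapped. The members and lists were chosen with earlier results of these data known. Named in full are Foxj1, Dnah9 and Hydin, every called member and the most abundant member per kb of each class. Other members, such as Ccno and Lrriq1, and the level split at 2 CPM per kb were chosen after their values were seen. From the other lists, up to 4 called genes were named. Sex came from whether the count of the Y-linked gene Ddx3y exceeded that of Xist. The depth, 17057216 to 52319957 counts, left 30 of the 50 genes at or above 1 CPM in every library, and 1 was the lowest count. Alternatives were DESeq2 1.42.0 size factors and Wald test, no filter, 1 CPM in 5 libraries, the compared groups alone, the replicate block, sex, each library left out and, added later, female libraries alone.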

Additional observations from a re-analysis of the deposited data

How the results depend on the processing

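Under DESeq2 size factors, each count of called cilium genes and each median kept its direction and stayed within the limits used here (a count within 1.5 times). The number of cilium genes lower in C/C against C/+ (11) was 23 with the DESeq2 Wald test, 27 with no filter, 5 with the replicate block, 6 in female libraries and 0 to 21 with a library left out. For C/C against WT (16) it was 30 with the Wald test, 33 with no filter, 28 with only the compared groups, 2 with the replicate block and 0 to 26 with a library left out. Cilium genes higher in C/C numbered 1 against C/+ with no filter or with sex as a covariate (0 to 1 with a library left out), and against WT 1 with the Wald test, with no filter or in female libraries and 2 with sex. In C/+ against WT, 0 to 2 were lower with a library left out. Medians moved to -0.70 in C/C against C/+ in female libraries (-1.55 to -0.72 with a library left out) and to -1.29 in C/C against WT with sex (-1.87 to -1.47), and spanned -0.79 to -0.08 in C/+ against WT. The cause of these moves was not tested.

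Calls over all genes in C/+ against WT (585) were 1263 by the Wald test, 1299 with no filter, 356 with only the compared groups, 1700 with sex, 58 in female libraries and 103 to 729 with a library left out. In C/C against C/+ (1056) they were 1609, 1614 and 185 to 1308 by the Wald test, with no filter and with a library left out. In C/C against WT (444) they were 1476, 1456, 176 and 1348 by the Wald test, with no filter, with the block and with sex, and 30 to 782 with a library left out.

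Signs that turned belonged to uncalled differences. Tppp3 turned to -0.0112 in C/C against C/+ with the 1 CPM filter and to -0.012 with the replicate block (-0.22 to 0.38 with a library left out) and to -0.0023 against WT with the block (-0.14 to 0.25). Rsph9 turned to 0.17 in C/C against WT with sex and in female libraries (-0.10 to 0.15), and Cfap44 to -0.25 in C/+ against WT in female libraries (-0.18 to 0.35). With a library left out, C/+ against WT also spanned 0 for Dnah11 (-0.75 to 0.17), Dnali1 (-0.60 to 0.13), Spag17 (-1.05 to 0.0247), Cfap65 (-0.72 to 0.10), Cfap69 (-0.15 to 0.0292), Cfap43 (-0.56 to 0.0533) and Tppp3 (-0.30 to 0.31). Replicate numbers gave no sign of pairing (correlation of deviations -0.328 to 0.21 over 7 pairs with the same number, -0.254 to 0.264 over 14 others). Deviations from a group mean cancel within the group, so these correlations are not independent and cannot show that the libraries were unpaired. Depth limits genes under 1 CPM most.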
